A study of Bos taurus with 6 samples.

Results

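The 10 genes of nucleoside salvage, pyrimidine breakdown and purine breakdown described here were measured in primary bovine granulosa cells (GC) plated at normal or at high density. They are UPP1, UCK2, CDA, DPYD, XDH, PNP, ADA, HPRT1, APRT and NT5E. The array reports a signal for each transcript cluster, a group of probes for a transcript. Every transcript cluster whose gene symbol equals a listed symbol was taken, which gave 10 of the 26773 transcript clusters of the table, 1 for each gene. The 26773 include 82 reporter control rows, which also count in the shares and ranks over the table. The genes were chosen by their known role and with their difference between the densities in these same arrays in view. Their differences are therefore given as a description, without p-values, and support nothing.

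The series holds 6 arrays, 3 of cultures plated at normal density and 3 of cultures plated at high density. All 6 cultures were GC pooled from the small to medium follicles of ovaries of many slaughtered cows of unknown cycle stage, frozen, and then grown on collagen without serum. Both groups received FSH, IGF-1 and androstenedione and were harvested on day 9, so that plating density is the only labelled difference. The arrays were of the type Bovine Gene 1.0 ST, and the values are log2 signals as normalized by the study. The methods name 6 GC preparations, 3 per density, as pools of cells from many animals. They do not say whether a pool was split over both densities. The p-values measure the spread between the cultures of a density.

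Cells can recover nucleosides and bases instead of building nucleotides anew, and they can break them down. On the pyrimidine side, cytidine deaminase (CDA) converts cytidine to uridine, uridine phosphorylase (UPP1) splits uridine into uracil and ribose 1-phosphate, uridine-cytidine kinase (UCK2) instead phosphorylates uridine for reuse, and dihydropyrimidine dehydrogenase (DPYD) starts the breakdown of uracil. On the purine side, the surface enzyme CD73 (NT5E) forms adenosine from AMP, adenosine deaminase (ADA) makes inosine from it, and purine nucleoside phosphorylase (PNP) releases hypoxanthine. Hypoxanthine is either oxidized to xanthine and urate by xanthine dehydrogenase (XDH) or returned to the nucleotide pool by HPRT1, while APRT returns adenine.

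UPP1 and CDA had higher signals at high density and DPYD and XDH lower ones, and PNP was 1.60-fold higher. With the lower group set to the background level of the array, the change was at least 6.04-fold for UPP1, 4.42-fold for CDA, 3.18-fold for XDH and 1.44-fold for DPYD. These bounds belong to the background level used here, and a higher level would make them smaller. UCK2, HPRT1 and APRT differed by less than 1.1-fold between the densities. A transcript cluster is termed called when limma's test over the whole table gave both a p-value and a false discovery rate (FDR) below 0.05 and the fold change (FC) in either direction exceeded 1.5, which are the limits set in the methods. Of the 10 genes 5 were called, 3 higher and 2 lower at high density. Over all features 7.49% of the transcript clusters were called, 3.97% higher and 3.51% lower, and nothing is read from this comparison because the genes were selected on the same contrast. At any FC, 6 of the 10 genes had an FDR below 0.05, 4 higher and 2 lower, beside 19.1% of the table, 8.64% higher and 10.4% lower. The 3 high density signals lay all above or all below the 3 normal density signals for 6 of the 10 genes, as they did for 37.3% of all transcript clusters.

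Signals close to the floor of the array limit how far a difference can be measured. The background level used here, 4.62 on the log2 scale, is the 95th percentile of the 82 reporter control rows over the 6 arrays. Both group means of UCK2, PNP, HPRT1, APRT and NT5E were above it. For UPP1 and CDA the normal density mean and for DPYD and XDH the high density mean lay at or below it, and both means of ADA did. Signals of different genes come from different probes and are not set against each other here.

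**Figure D1:**
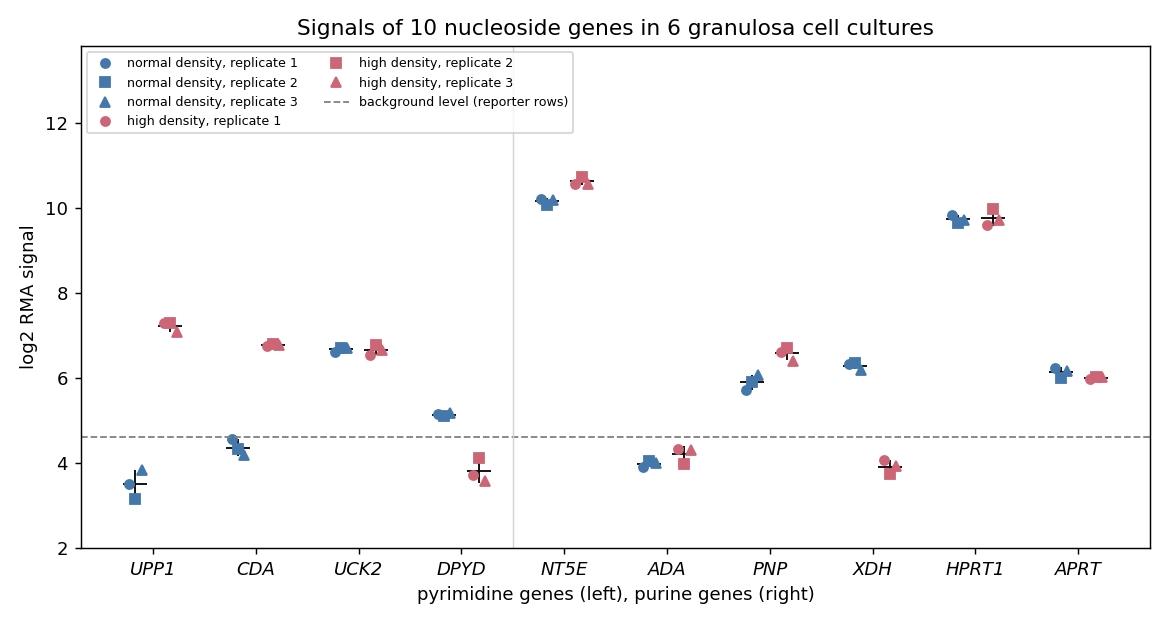
Log2 signal (vertical axis) of the 10 genes in each of the 6 cultures, with blue symbols for normal and red symbols for high density, a symbol shape for each replicate number, and black bars for the mean ± SD (n = 3) of a density. The dashed line is the background level of 4.62, and UPP1, CDA, DPYD and XDH lie on opposite sides of it at the 2 densities.

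UPP1 (transcript cluster 12854172) showed the greatest difference of the 10 genes. Its log2 signals at normal density were 3.51, 3.16 and 3.83 in replicates 1 to 3, and those at high density were 7.29, 7.28 and 7.07. All normal density cultures lay below the background level, all high density cultures far above it, and the groups were separated by more than 3 log2 units. The means were 3.50 ± 0.34 and 7.21 ± 0.12 (SD, n = 3), a log2 difference of 3.71 (standard error, SE, 0.16), or 13.1-fold. It ranked at place 8 among all 26773 differences in the direction of a rise. Since the lower signal is under the background level, the part that can be measured with this level is that UPP1 was at least 6.04-fold higher at high density.

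CDA (12784351), which supplies uridine from cytidine, had signals of 4.57, 4.33 and 4.18 at normal density and of 6.74, 6.79 and 6.77 at high density. The high density cultures were nearly equal to each other, with an SD of 0.03, whereas the normal density cultures spread with an SD of 0.19. The log2 difference was 2.41 (standard error 0.10), or 5.30-fold, and CDA was at least 4.42-fold higher when the normal density level is set to the background. It ranked at place 42 among the rises of the table.

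UCK2 (12847134), the kinase that competes with UPP1 for uridine, had signals of 6.60, 6.71 and 6.71 at normal density and 6.54, 6.77 and 6.65 at high density. The groups overlapped, and both extremes of the 6 values were high density cultures. The log2 difference was −0.02 with a 95% interval from −0.21 to 0.17. UCK2 does not stand for all uridine kinases. UCK1 (12706126), from the lists of related genes below, was lower at high density without overlap of the groups. Its log2 difference was −0.44 (SE 0.09, adjusted p = 0.0162 by limma), below the FC threshold. UCKL1 (12716231) went the other way, with 0.24 (adjusted p = 0.123 by limma).

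DPYD (12835816), which acts on the uracil that UPP1 releases, had signals of 5.15, 5.11 and 5.17 at normal density and 3.73, 4.11 and 3.59 at high density. The normal density cultures were tightly grouped and above the background level, and all high density cultures were below it. The log2 difference was −1.33 (standard error 0.13), or 2.52-fold in size, and place 88 among the falls of the table. DPYD was at least 1.44-fold lower at high density when the lower level is set to the background, and this bound is under the FC threshold. High density replicate 2 lay 0.30 above the mean of its group, and without this culture the log2 difference was −1.48.

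The 4 pyrimidine genes thus split, with CDA and UPP1 higher, UCK2 with overlapping groups and DPYD lower at high density. These are differences of RNA signal in whole cultures, in which fewer cells of a type and less RNA per cell cannot be told apart.

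**Figure D2:**
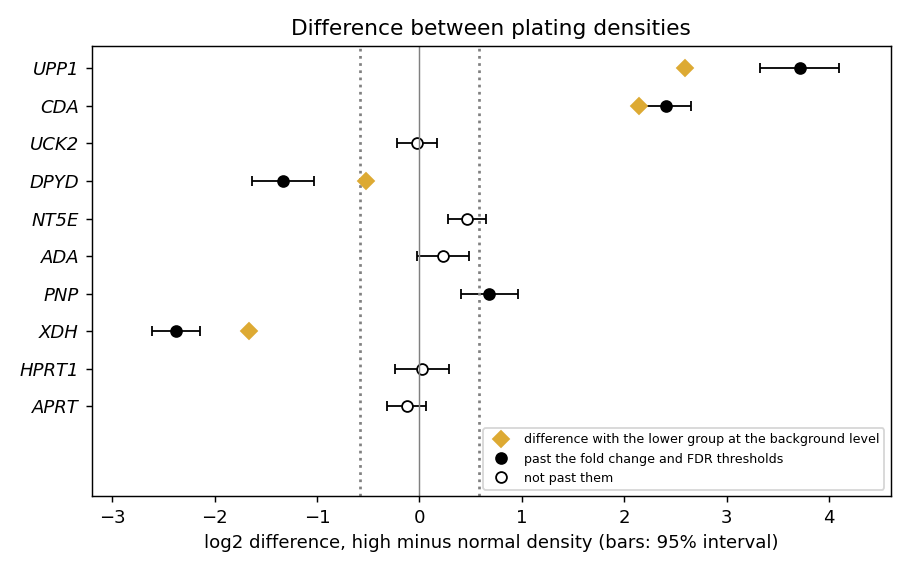
Log2 difference, high minus normal density (horizontal axis), of the 10 genes with 95% intervals from limma; filled circles mark genes past the thresholds and dotted lines an FC of 1.5. Yellow diamonds show the difference when the lower group is set to the background level, for example 2.59 in place of 3.71 for UPP1 and −0.52 in place of −1.33 for DPYD on the negative side.

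Among the purine genes, XDH (12703781) showed the greatest difference. The signals were 6.33, 6.34 and 6.19 at normal density and 4.07, 3.74 and 3.93 at high density. Every high density culture was below the background level and every normal density culture was well above it. The log2 difference was −2.38 (standard error 0.10), or 5.19-fold in size, and it ranked at place 6 among the falls of the table. With the high density level set to the background, XDH was at least 3.18-fold lower at high density.

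PNP (12693791), which releases hypoxanthine for XDH and HPRT1 and guanine for HPRT1, had signals of 5.72, 5.90 and 6.08 at normal density and 6.62, 6.71 and 6.41 at high density. The groups did not overlap, with 6.08 as the highest normal density and 6.41 as the lowest high density signal. The log2 difference was 0.68 (standard error 0.12), or 1.60-fold, with both means above the background level. PNP was the called gene nearest to the FC threshold, and it was not called by the methods' t-test, which uses the spread of each gene alone.

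NT5E (12896617), the surface nucleotidase that forms adenosine, had signals of 10.19, 10.07 and 10.18 at normal density and 10.56, 10.73 and 10.57 at high density. All high density cultures were above all normal density cultures. The log2 difference of 0.47 (standard error 0.08), or 1.38-fold, was below the FC threshold, so NT5E was not called and is the gene nearest to the threshold from outside.

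ADA (12717920), the next enzyme on the path from adenosine, had signals of 3.91 to 4.04 at normal density and 4.34, 3.98 and 4.31 at high density. All 6 signals were below the background level, so no fold change is given. High density replicate 2 lay within the range of the normal density cultures, and the other two high density cultures lay above it.

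HPRT1 (12902845), which returns hypoxanthine and guanine to the nucleotide pool, had signals of 9.84, 9.64 and 9.71 at normal density and 9.59, 9.98 and 9.72 at high density. The groups overlapped, and the log2 difference was 0.03 with a 95% interval from −0.23 to 0.29. For APRT (12757598), which returns adenine, the signals were 6.23, 5.99 and 6.17 at normal density and 5.98, 6.02 and 6.02 at high density. These groups overlapped as well, and the log2 difference was −0.12 with a 95% interval from −0.31 to 0.07.

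The replicates of the 10 genes spread about as much as those of the table. The median SD over the genes was 0.09 at normal and 0.14 at high density, and over all transcript clusters it was 0.08 and 0.13. In 6 of the 10 genes high density replicate 2 was the culture farthest from the mean of its density, and the same held for 49.5% of all transcript clusters. Relative to that mean it was highest for DPYD, HPRT1, UCK2 and NT5E and lowest for ADA and XDH. Without this culture the log2 difference was 3.68 for UPP1, 2.39 for CDA, −2.29 for XDH and 0.61 for PNP. The same 5 genes were called, and HPRT1 and UCK2 both had a log2 difference of −0.08.

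**Figure D3:**
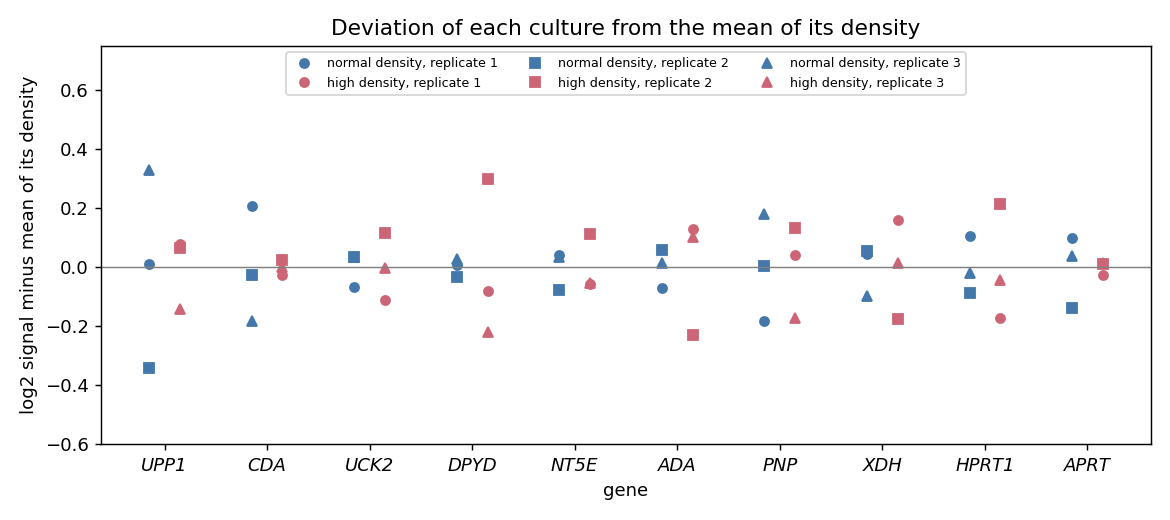
Log2 signal of each culture minus the mean of its density (vertical axis) for the 10 genes, with blue symbols for normal density, red for high density and a shape for each replicate number. The red squares, high density replicate 2, lie 0.30 above the mean for DPYD and 0.23 below it for ADA, and the spread of UPP1 at normal density reaches from −0.34 to 0.33.

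The other genes of nucleotide metabolism were described from 10 lists of related genes, 108 symbols in all, of which 102 were found on the array as 105 transcript clusters. Of these, 7 were higher and 3 were lower at high density and passed the thresholds, 9.52% of the 105, beside 7.49% over the whole array. The median log2 difference over the 105 was 0.03, and over all transcript clusters it was 0.02. The 105 leave out the 10 genes above, and the lists were chosen with earlier results of these data known. The share called among the 105 was near that of the table, and nothing about the pathway as a whole is read from it. None of the 10 lists held more than 3 called transcript clusters.

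In pyrimidine salvage and breakdown, 1 of 11 transcript clusters was called. It was CMPK2 (12703212), the mitochondrial kinase for UMP and CMP, which rose from 5.15 ± 0.15 to 6.34 ± 0.08 (SD, n = 3), by 1.19 on the log2 scale (SE 0.09, adjusted p = 2.22e-04 by limma). The median of this list was 0.10. In de novo pyrimidine synthesis 1 of 5 was called, DHODH (12758530), the mitochondrial enzyme that oxidizes dihydroorotate. It rose from 5.96 ± 0.04 to 6.73 ± 0.12 (SD, n = 3), a log2 difference of 0.77 (SE 0.08, adjusted p = 8.56e-04 by limma).

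Of 13 transcript clusters for purine salvage and interconversion, 1 was called. AMPD2 (12844675), an AMP deaminase that forms IMP, fell from 6.65 ± 0.07 to 5.88 ± 0.12 (SD, n = 3), a log2 difference of −0.77 (SE 0.08, adjusted p = 9.03e-04 by limma). For the enzymes of de novo purine synthesis, 0 of 14 transcript clusters were called by limma or by the methods' t-test, and 6 had an unadjusted p below 0.05 by limma. However, 12 of the 14 had a negative difference, with a median of −0.12, and 5 of them had an FDR below 0.05 at a change below the FC threshold, 35.7% beside 10.4% of the table that were lower at this FDR. These were PRPS1, PRPS2 (12905259), PPAT, IMPDH2 and ATIC, of which all but ATIC were named after their values were seen. The other transcript cluster of PRPS2 (12906728) had overlapping groups and a log2 difference of −0.03 (adjusted p = 0.905 by limma). ATIC (12775434), which catalyses the last steps to IMP, had the greatest of these differences, −0.50 (SE 0.07, adjusted p = 0.00353 by limma), with no overlap of the groups. The number with an FDR below 0.05 was not stable, since it was 1 when normal density replicate 3 was left out, 2 when normal density replicate 2 was, and 3 when high density replicate 3 was or with the methods' t-test.

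Of 21 transcript clusters for nucleotidases and the breakdown of extracellular ATP, 2 rose and 1 fell. ALPL (12780150), the tissue-nonspecific alkaline phosphatase, which can remove phosphate from extracellular nucleotides among other substrates, rose from 6.93 ± 0.28 to 9.24 ± 0.21 (SD, n = 3). Its log2 difference of 2.31 (SE 0.16, adjusted p = 1.36e-04 by limma) was the greatest of the 105. ENPP1 (12898893), a surface enzyme that cleaves ATP to AMP and pyrophosphate, rose by 0.66 (SE 0.08, adjusted p = 0.00156 by limma). NT5C2 (12821454), a cytosolic nucleotidase that prefers IMP and GMP, had a log2 difference of −0.90 (SE 0.11, adjusted p = 0.00170 by limma). The list's median was 0.14.

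Of 9 transcript clusters of nucleoside and nucleobase transporters, 1 rose and 1 fell. SLC43A3 (12732213), a transporter of purine bases, rose from 7.95 ± 0.02 to 8.56 ± 0.14 (SD, n = 3), a log2 difference of 0.61 (SE 0.09, adjusted p = 0.00267 by limma). Its call was lost when the medians of the arrays were made equal and without high density replicate 1, with differences of 0.57 and 0.56. SLC28A2 (12695950), a sodium-coupled carrier of purine nucleosides, had a log2 difference of −0.83 (limma's adjusted p = 6.07e-04), but all its signals were below the background level. Among 11 receptors for adenosine and nucleotides, 1 was called. P2RY1 (12683380), a receptor for ADP, rose from 4.39 ± 0.16, below the background level, to 5.94 ± 0.03 (SD, n = 3), with limma's adjusted p = 6.85e-05, and was at least 2.50-fold higher at high density.

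XDH needs a molybdenum cofactor, and of 7 transcript clusters for the making of this cofactor and for other enzymes that carry it, 1 was called. This was SUOX (12865176), sulfite oxidase, with a log2 difference of 0.61 (SE 0.08, adjusted p = 0.00183 by limma), a direction opposite to that of XDH. Its call was lost when the medians were made equal, with a difference of 0.57, and also without normal density replicate 3 or high density replicate 1. In the list for urate handling 0 of 6 transcript clusters were called by limma or by the methods' t-test, 1 had an unadjusted p below 0.05, and the largest difference above the background level was that of the urate and sugar transporter SLC2A9 (12873040), 0.55 (SE 0.10, adjusted p = 0.0107 by limma). Of 8 transcript clusters for the use of the pentose phosphates that phosphorolysis releases, 0 were called by limma or by the methods' t-test, and 3 had an unadjusted p below 0.05. The largest difference there was 0.51 for RPIA (12707778), ribose 5-phosphate isomerase (SE 0.11, adjusted p = 0.0184 by limma). Its normal density mean of 4.38 was below the background level, and RPIA was at least 1.20-fold higher at high density. RPIA was called without normal density replicate 3, with a log2 difference of 0.62.

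**Figure D4:**
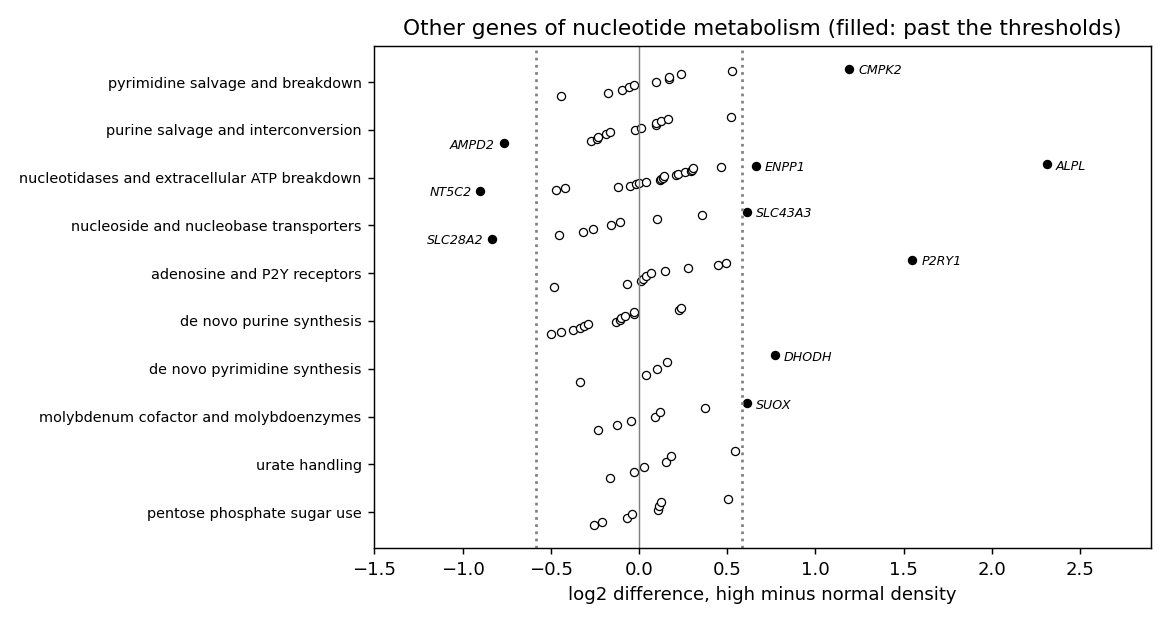
Log2 difference, high minus normal density (horizontal axis), for 105 transcript clusters in the 10 lists of nucleotide metabolism (rows), each point 1 transcript cluster, with filled and named points past the thresholds and dotted lines at an FC of 1.5. The 10 filled points range from −0.90 for NT5C2 to 2.31 for ALPL, and 12 of the 14 points of de novo purine synthesis lie left of 0.

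The transcript clusters whose signals followed UPP1 and XDH most closely over the 6 arrays were found by Pearson's correlation among 11249 with a symbol and a group mean above the background level. For UPP1 they were LRRC1, SYT17, CSRP3, TNFSF18 and TNC, with r between 0.9986 and 0.9996. The log2 differences of these genes ranged from 0.53 for CSRP3 to 3.13 for SYT17. The normal density means of SYT17 (3.62) and TNC (4.13) were below the background level, and with that level in their place the log2 differences were at least 2.14 and 1.53. For XDH they were ZC4H2, CDCA3, NCOA2, DPF3 and ATOH8, with r between 0.9984 and 0.9995 and log2 differences between −1.41 for ATOH8 and −0.35 for NCOA2. The high density mean of CDCA3, 4.61, was just below the background level. The 6 points of each correlation fall into the 2 densities, so that any gene with well separated groups comes close to 1, and these lists are descriptions only.

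The labelled cell type was checked on 12 granulosa markers. Of these 11 had a mean above the background level at each density, CYP19A1 being below it at high density and HSD17B1 at normal density. At the thresholds 7 fell and 1 rose, beside 7.49% of all transcript clusters called in either direction. The study reports CYP19A1, FSHR, INHA, INHBA and FST among its genes lower at high density, so these markers follow density as well as cell type. The summed linear signal of the 12 was 5777 to 6434 at normal density and 3431 to 3751 at high density. Of 6 theca markers 2 rose, INSL3 from 7.20 to 9.02 and ACTA2 from 6.98 to 8.13, and the summed signal was 912 to 923 and 1199 to 1378. Such sums add signals of different probes, so the genes with the highest signals weigh most, and they do not measure an amount of cells. STAR (9.03 and 8.54), NR2F2 (6.47 and 6.40) and DES (4.58 and 5.08) were above the background level in at least 1 group and not called. CYP17A1, the enzyme that defines steroid-making theca cells, was below the background level with 2.93 and 2.92. For leukocytes, which are rich in ADA, 0 of 10 markers were above the background level at either density, and for red blood cells 0 of 6. Of 9 endothelial markers 1, VWF, was above it, with 5.39 and 5.70, while PECAM1 and CDH5 were not and the called marker CLEC14A was below it at both densities, and the summed signal was 97.0 to 102 and 108 to 115. Of 6 surface epithelium markers, MSLN (5.61 and 5.75) and CDH1 (5.73 and 5.89) were above it and 0 were called by limma or by the methods' t-test, 1 with an unadjusted p below 0.05. The part of these markers' changes in the differences of the nucleoside genes was not tested. The marker lists leave out the hemoglobin gene HBA, the claudin gene CLDN5 and the keratin genes KRT8 and KRT18. The study places them among its top up-regulated genes at high density.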

How the data were processed

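RNA of 6 GC cultures was measured on arrays of the type Bovine Gene 1.0 ST, 3 per density. The deposited table holds log2 signals per transcript cluster that the authors made with the RMA procedure in Affymetrix Expression Console (background reduction, normalization between arrays, gene-level summary); their comparisons used Transcriptome Analysis Console 3.0, per the labels. The genome build is not given in the sources used here. The table was read whole, with 0 columns of other samples and array medians from 4.34 to 4.43, and was not normalized again. Fold changes that rest on signals near the background are limited in how far they can be measured. The number of arrays limits the precision.

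Groups were taken from the sample descriptions. High and normal density were compared with limma 3.58.1 in R 4.3.3 (lmFit, eBayes, no covariates) over all transcript clusters with Benjamini-Hochberg adjustment, after tests on simulated data. Standard errors and 95% intervals are limma's. An exact permutation test of 3 against 3 cannot go below p = 0.1 and was not used. The alternatives were the methods' t-test (their analysis of variance for 2 groups), a trend with a robust prior, array weights, a replicate block, shifted medians, a second quantile normalization, a filter at the background level, an FDR of 0.01, other background percentiles and leaving out each culture.

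The 10 genes and the lists of related and marker genes, written from general knowledge, were chosen with earlier results of these data known. Named were all 10 genes, up to 4 called genes per list (with none called, the largest difference above background), the 5 closest patterns to UPP1 and XDH, and markers of other cell types above background. UCK1 and UCKL1 were named in addition, after their values were seen. Gene symbols are those of the table. All 10 symbols are listed in RefSeq (ARS-UCD2.0), and 6 of the 10 accessions matched it with the same symbol. Those of UPP1, DPYD, ADA and NT5E, which are Ensembl transcripts, found no match, so these genes rest on the symbols of the table. No sequences were used here. Python 3.11.15 with matplotlib 3.10.9 drew the figures.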

Additional observations from a re-analysis of the deposited data

How the results depend on the processing

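Of the 10 genes 5 were called under every alternative except the methods' t-test, under which PNP was lost and 4 were called. The log2 difference of each called gene kept its sign in all alternatives, and when any single culture was left out it lay within 3.54 to 3.88 for UPP1, 2.31 to 2.51 for CDA, −1.48 to −1.22 for DPYD, −2.46 to −2.29 for XDH and 0.59 to 0.77 for PNP. None of UCK2, ADA, HPRT1, APRT and NT5E was called under any alternative, while the sign for UCK2 and HPRT1 changed between cultures left out (−0.08 to 0.03 and −0.08 to 0.12). ADA has no value with the filter at the background level, which removed it. Over all features 1848 to 2434 transcript clusters were called without a given culture, 1611 with the methods' t-test and 1695 with the filter, and among the 105 related transcript clusters 8 to 12 were called. In some alternatives calls were gained by DCTD, LACC1, SLC2A9 and RPIA and lost by SLC43A3 and SUOX. At the 90th percentile of the reporter rows 16 of the 20 group means of the 10 genes were above the background level, and at the 95th and 99th 14 were. The fold changes given as "at least" rest on the 95th percentile. With the 99th, a level of 4.92, they would all be smaller, and the high density mean of RPIA, 4.89, would be below the background level. The labels do not say whether same-numbered cultures of the 2 densities share a cell pool, and the samples were treated as unpaired. Deviations from the group means of same-numbered cultures correlated at 0.05, −0.05 and −0.04, and those of other pairs at −0.07 to 0.09. With so few arrays these correlations show no pairing but cannot exclude it. With the replicate block 2020 transcript clusters, the same number of the 10 genes (5) and 10 related transcript clusters were called. The signals below the background level in one or both groups limit the sizes given for UPP1, CDA, DPYD, XDH and ADA, and for SLC28A2, P2RY1, RPIA, SYT17, TNC and CDCA3.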
